A study of Mus musculus with 24 samples.

Results

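Cell cycle and proliferation genes were examined in the liver of mice fed quercetin, a plant flavonol. The set holds 35 genes chosen by name, from the D and E cyclins to Mki67, and the brightest probe set of each over the 24 arrays gave its values. A value was found for 34 of the 35 genes, among 18193 genes in all. Ccnb1, which encodes cyclin B1, was not analysed here. No gene of the set differed between any diets at an adjusted p under 0.05.

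Liver RNA came from 24 male BALB/c mice, a common inbred laboratory strain, with 1 Affymetrix array per mouse. The mice were obtained at 6 weeks of age, ate a nonpurified diet first and then the test diet for 14 days. Control mice ate AIN93G, which is a purified diet for rodents, and 3 groups received AIN93G holding 0.1%, 0.5% or 1.0% quercetin, with 6 mice in each group. The labels name no transgene or other treatment. The mice lived 3 to a cage, and cage membership was not used here, so p-values measure the spread between mice and effects of cage and diet cannot be told apart.

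Cells enter the cycle when D cyclins with CDK4 and cyclin E lift the block that RB proteins place on E2F factors, which then raise genes for DNA replication and nucleotide supply. Later, a complex of MuvB, B-MYB and FOXM1 drives the genes of G2 and mitosis, and CDK1 with B cyclins starts mitosis. Hepatocytes of the adult liver are mostly out of the cycle, and they enter it in numbers after loss of tissue, as in partial hepatectomy.

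The promoters of the set were read for short sequence words known from this programme. Of the 34 genes, 26 had an entry in the RefSeq promoter table of build GRCm38.p6. It holds 250 bases before and 50 after a start of each gene, and the outermost start listed was used. For Aurka, Bub1b, Cdc6, E2f1, Mcm5, Mcm7, Mki67, Tk1, Top2a and Tyms that start was not at the edge of the annotated gene. Their windows may lie within the gene and were counted below with the others. Ccnd1, Ccnd2, Ccne2, Mcm4, Wee1, Ccna2, Foxm1 and Aurkb had no entry. The words were those of E2F sites (TTTCCCGC, TTTGGCGC, TTCCCGCC and TTGGCGCC, which overlap each other), the word TTTGAA of the cell cycle homology region (CHR), and the NF-Y box, which reads CCAAT. The E-box, bound by MYC and by clock factors, was searched as CACGTG. Both strands were searched. The sequences below are the 250 bases before the start of 5 genes, 5′ to 3′ on the gene's strand, and capitals mark every match to a word on either strand. Rrm1 and Mcm6 stand for the S phase genes with E2F words, Cdk4 for the E-box, and Cdk1 and Cdc20 for the CHR with CCAAT. Rrm1 is at chr7:102441445-102441694 (plus strand), Mcm6 at chr1:128359706-128359955 (minus), Cdk4 at chr10:127063285-127063534 (plus), Cdk1 at chr10:69352913-69353162 (minus) and Cdc20 at chr4:118437344-118437593 (minus), all upstream of the annotated gene.
Rrm1: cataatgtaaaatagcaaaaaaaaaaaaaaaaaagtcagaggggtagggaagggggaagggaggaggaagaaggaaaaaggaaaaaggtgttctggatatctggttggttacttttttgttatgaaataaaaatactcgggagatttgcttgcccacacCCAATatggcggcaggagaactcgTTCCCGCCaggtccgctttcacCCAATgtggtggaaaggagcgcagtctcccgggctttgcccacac
Mcm6: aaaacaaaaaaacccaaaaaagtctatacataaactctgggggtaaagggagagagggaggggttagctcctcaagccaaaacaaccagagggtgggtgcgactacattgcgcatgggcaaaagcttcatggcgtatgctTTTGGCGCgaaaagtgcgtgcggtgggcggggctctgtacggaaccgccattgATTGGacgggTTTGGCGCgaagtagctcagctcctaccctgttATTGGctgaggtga
Cdk4: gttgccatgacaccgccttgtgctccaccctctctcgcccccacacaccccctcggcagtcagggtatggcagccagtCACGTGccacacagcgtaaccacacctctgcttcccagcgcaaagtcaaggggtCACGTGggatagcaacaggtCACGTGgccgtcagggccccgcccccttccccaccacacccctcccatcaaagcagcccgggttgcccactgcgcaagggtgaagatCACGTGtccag
Cdk1: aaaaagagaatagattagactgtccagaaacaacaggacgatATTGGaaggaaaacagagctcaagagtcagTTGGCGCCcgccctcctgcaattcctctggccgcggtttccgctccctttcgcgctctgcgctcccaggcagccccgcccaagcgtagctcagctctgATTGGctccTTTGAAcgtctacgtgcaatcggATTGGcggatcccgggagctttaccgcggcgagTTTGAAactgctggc
Cdc20: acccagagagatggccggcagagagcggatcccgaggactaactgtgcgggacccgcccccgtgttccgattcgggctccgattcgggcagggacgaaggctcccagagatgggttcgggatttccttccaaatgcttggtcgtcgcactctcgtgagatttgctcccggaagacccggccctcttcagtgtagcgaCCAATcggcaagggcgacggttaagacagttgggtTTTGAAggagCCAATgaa

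The words followed the roles of the genes. An E2F word lay in the 300-base window of 7 of 15 genes of the G1, S phase and nucleotide roles and in 1 of 11 genes of the G2, mitosis and spindle roles, against 3.91% of all 27025 windows in the table. The CHR lay in 1 of 15 and in 9 of 11, against 18.2% of all windows. CCAAT lay in 8 of 15 and 10 of 11, against 38.0%, and CHR with CCAAT in 1 of 15 and 9 of 11, against 7.16%. The E-box lay in 2 of 15 and 0 of 11, against 7.24%, and the Cdk4 window held 4 of them. A match is a description of these letters and was not tested for binding.

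**Figure D1:**
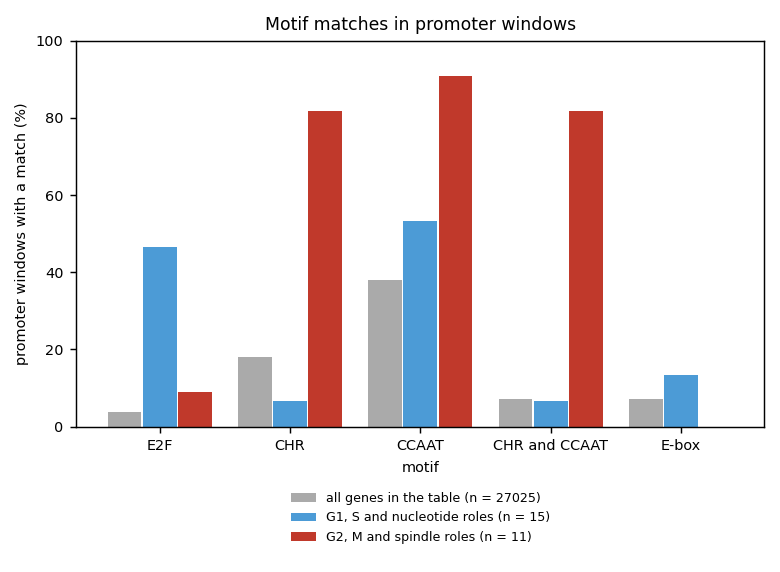
Share of 300-base promoter windows (percent) that hold each word on either strand, for all 27025 genes of the promoter table (grey), 15 genes of the G1, S phase and nucleotide roles (blue) and 11 genes of the G2, mitosis and spindle roles (red). E2F words are most frequent in the blue genes, and CHR with CCAAT in the red ones, at 9 of 11.

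Mki67, Top2a and other markers of dividing cells lay at or below the middle of the array in every mouse. Levels are quantile-normalized log2(intensity + 1). A gene is said to be at the floor on an array when its level is at or below the median gene of that array, which lay between 3.67 and 3.76, and it is marked in a group when that held for all 6 mice. The floor is a median, so many genes lie below it by construction. By this rule 17 of 34 genes were above the floor in every group, beside 52.8% of all 18193 genes, and 13 (38.2%) were at the floor on all 24 arrays, beside 35.2% of all genes. Only 5 (14.7%) were above it on every array, beside 39.4%. The 13 were Ccne2 (cyclin E2), E2f1, Cdc6 (origin licensing), Tyms (thymidylate synthase), Ccnb2 (cyclin B2), Plk1 and Aurkb (mitotic kinases), Bub1 and Bub1b (spindle checkpoint), Birc5 (survivin), Kif11 (a spindle motor), Top2a (topoisomerase II alpha) and Mki67, the gene of the Ki-67 antigen. Mcm3, Mcm6, Ccna2 and Aurka were marked in some groups but not on all arrays.

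The count differed with the gene's role and is a description of these probe sets, with no test. Of the 6 genes for G1 cyclins, their kinase and E2F1, 4 were above the floor in every group. So were 6 of 9 licensing and replication fork genes and 3 of 4 nucleotide supply genes. Only 3 of 8 measured genes of the G2 and mitotic kinases, cyclins and transcription factors were above it, and 1 of 7 spindle, checkpoint and chromosome genes, Cdc20. Ccnd1, Ccnd2, Cdk4, Mcm7 and Pcna were above the floor on all 24 arrays. Some genes above the floor by the group rule were at it in most mice, with Rrm2 on 18, Foxm1 on 17, Cdk1 on 16 and Ccne1 on 15 of 24 arrays. In whole liver, fewer dividing cells and less RNA per cell cannot be told apart.

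The floor was also read from 74 olfactory, vomeronasal and taste receptor genes, whose products belong to sensory cells. Taking their 95th percentile on each array, only Cdc6, Bub1 and Bub1b were at the floor on every array, and 10 of the 34 genes were at that level on no array. Mki67 ran from 0.55 to 3.64 and was at or below it on 22 of 24 arrays. The median spread within groups was 0.85 (SD, log2) for the 13 genes at the floor, 0.80 for the receptor genes, 0.37 for the 17 genes above the floor and 0.50 for all genes. A difference of a given size is therefore measured less precisely in the 13 genes at the floor than in Pcna, with a spread of 0.10.

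**Figure D2:**
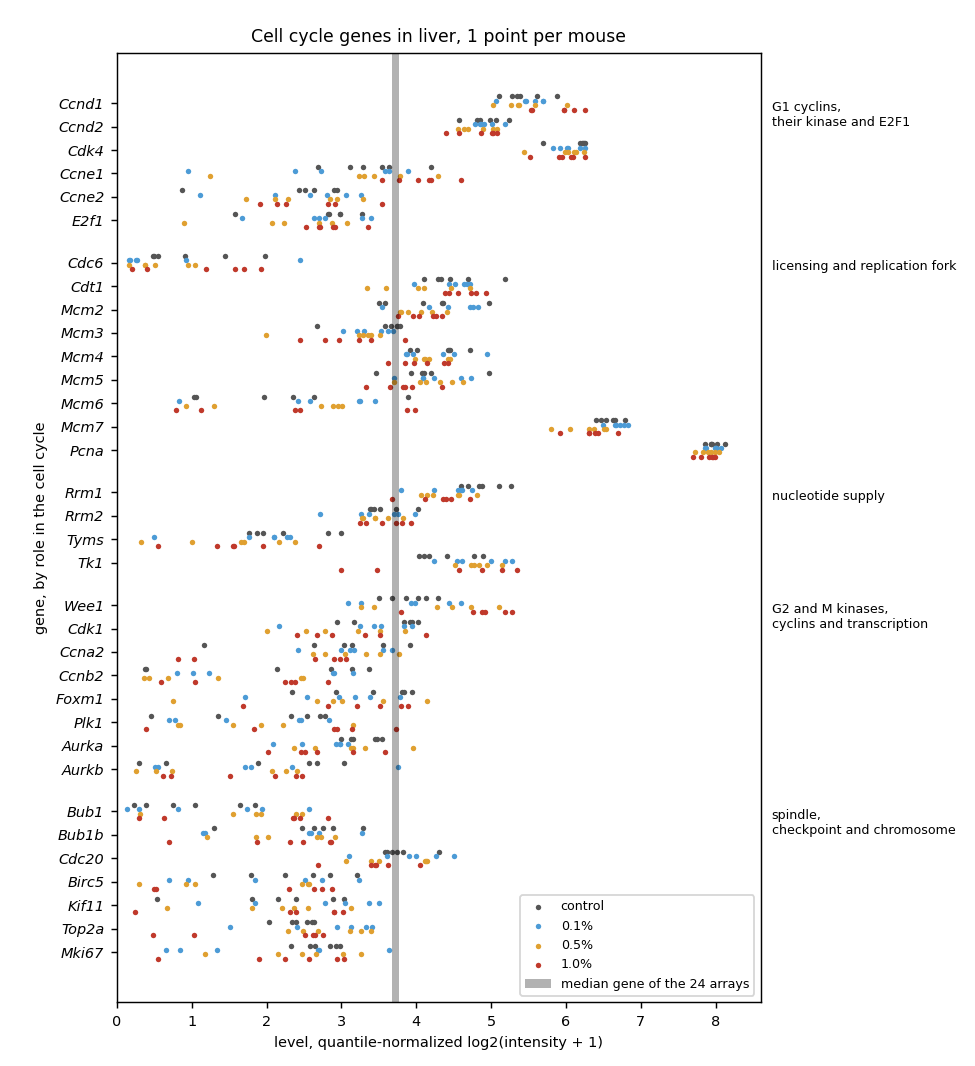
Level of each of the 34 genes in each mouse (x axis, quantile-normalized log2(intensity + 1)), with genes ordered by role on the y axis and 1 point per mouse coloured by diet. The grey band is the range of the 24 array medians, 3.67 to 3.76. The spindle and checkpoint genes other than Cdc20 lie to its left, and Ccnd1, Ccnd2, Cdk4, Mcm7 and Pcna lie to its right in every mouse.

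The labelled tissue showed its markers. All 6 hepatocyte markers measured (among them Alb and Ttr) were bright, with a mean level between 12.95 and 13.03 in each mouse. Genes of lymphocytes, which can carry proliferation transcripts into whole liver, were dim, with 4 of 5 T or NK cell markers and 2 of 4 B or plasma cell markers at the floor on all 24 arrays. Of the neutrophil markers, 6 were measured and 1 was at the floor on all arrays. Their mean level was 3.17 in control, 3.45 at 0.1%, 4.04 at 0.5% and 4.04 at 1.0%, and none passed the test. The markers did not move alike. In the same order, Lcn2 had group means of 4.65, 4.72, 6.67 and 6.63, S100a8 3.67, 3.73, 5.19 and 4.62, and S100a9 4.03, 4.61, 5.19 and 4.81. Ngp had 3.84, 4.02, 3.71 and 4.02, and Ltf was at the floor on 23 of 24 arrays. The part of neutrophils or lymphocytes in the values below was not tested. Replicate arrays of a group correlated at 0.927 to 0.953 over genes. Replicates 4 and 6 of the 0.5% group and replicates 4 and 5 of the 1.0% group stood apart on the first principal component, and the main values that moved most without these 4 arrays are given beside them. These 4 were the arrays furthest from the median on that component, and leaving them out was not planned beforehand.

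Each dose was compared with control to ask whether quercetin alters expression of the cycle's genes in liver. At 0.1% quercetin limma passed 0 of 34 genes at a Benjamini-Hochberg adjusted p under 0.05, beside 0% of all 18193 genes. At 0.5% it passed 0 of 34, beside 0.0165% of all genes. At 1.0% it passed 0 of 34, beside 0.022%, and for the slope over dose 0 of 34, beside 0.0989%. The test for any difference among the 4 groups passed 0 of 34, beside 0.181%. Between doses it passed 0 of 34 for 0.5% minus 0.1% (0.214% of all genes), for 1.0% minus 0.1% (0.253%) and for 1.0% minus 0.5% (0.022%).

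Before adjustment the shares of the 34 genes stood near or above those of all genes. At 0.1%, 2 of 34 genes (5.88%) had an unadjusted p under 0.05, both lower than control, beside 5.11% of all genes. They were Rrm1 and Aurka, and Aurka was at the floor in that group. At 0.5%, 3 of 34 (8.82%) did, all lower, beside 7.65%, and they were Rrm1, Mcm7 and Cdt1. At 1.0%, 4 of 34 (11.8%) did, with Wee1 and Ccnd1 higher and Rrm1 and Aurka lower, beside 8.92%. For the slope 4 of 34 (11.8%) did, with Wee1 and Ccnd1 positive and Rrm1 and Mcm7 negative, beside 10.9%. For any difference 5 of 34 (14.7%) did, beside 9.49%, and they were Mcm7, Rrm1, Wee1, Ccnd1 and Cdt1. Of the 17 genes above the floor, 1 (5.88%), 3 (17.6%) and 3 (17.6%) did at the 3 doses. For the slope 4 of these 17 (23.5%) did and for any difference 5 (29.4%). The shares of all genes given here also include genes at the floor. They are therefore not a like background for the 17, and no excess is read from them.

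Over the list, more genes lay below control than above it in the normalized values. The counts below control were 21 of 34 at 0.1% (47.7% of all genes), 25 of 34 at 0.5% (53.4%), 21 of 34 at 1.0% (51.6%) and 23 of 34 for the slope (52.4%). The median differences of the list were -0.04, -0.17 and -0.16 (log2) at the 3 doses, where those of all genes were 0.01, -0.02 and -0.01. The 3 comparisons share the control mice. Of the genes below control, 11, 12 and 10 at the 3 doses were among the 17 marked at the floor in at least 1 group. Of the 17 above the floor, 10, 13 and 11 lay below control, with medians of -0.01, -0.12 and -0.10. With dim genes left out of the fit the medians were 0.01, -0.11 and -0.10. Without normalization between arrays all genes shifted by a median of 0.11, 0.15 and 0.05, the counts below control were 13, 17 and 20, and the list's medians were 0.08, -0.03 and -0.08. At 0.1% the median ran from -0.06 to 0.02 with single mice left out, and it was above 0 without control replicate 5, where 16 of 34 lay below control. At 0.5% the median was -0.11 without replicate 6 of that group, and at 1.0% it was -0.10 without replicate 3 and -0.11 without replicate 4. Leaving out the 4 arrays apart gave -0.11 at 0.5% and -0.10 at 1.0%. The mean level of the 17 genes above the floor lay between 4.54 and 4.86 in control mice, 4.47 and 4.72 at 0.1%, 4.32 and 4.69 at 0.5%, and 4.42 and 4.79 at 1.0%, so the groups overlapped.

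**Figure D3:**
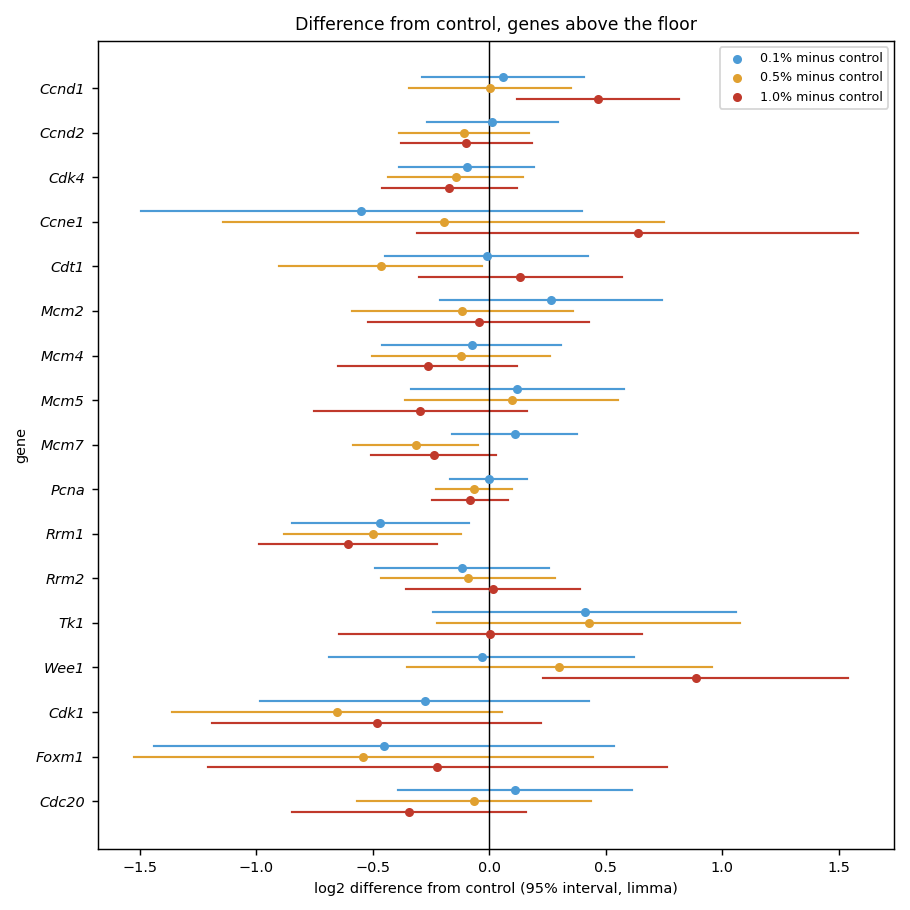
Log2 difference from control (x axis) with its 95% interval from limma for the 17 genes above the floor (y axis), at 0.1% (blue), 0.5% (yellow) and 1.0% quercetin (red), 6 mice per group. Intervals that leave out 0 are those of Rrm1 at all 3 doses, Mcm7 and Cdt1 at 0.5%, and Ccnd1 and Wee1 at 1.0%, before adjustment over genes.

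Among the genes of G1, Ccnd1 had the smallest p at 1.0%. Ccnd1 encodes cyclin D1, the partner through which growth signals reach CDK4 in hepatocytes. Its level had its lowest, median and highest mouse at 5.10, 5.37 and 5.88 in control, 5.06, 5.53 and 5.69 at 0.1%, 5.03, 5.36 and 6.01 at 0.5%, and 5.53, 5.98 and 6.25 at 1.0%. All 6 mice of the 1.0% group lay above the control mean and 4 lay above the highest control mouse, while the groups still overlapped. The 1.0% group was higher than control by 0.47 (log2, SE 0.17, 95% interval 0.12 to 0.81, 1.38-fold), with an adjusted p of 0.422 in limma. At 0.1% the difference was 0.06 and at 0.5% 0.00. The slope was 0.42 per 1% quercetin (SE 0.15, adjusted p = 0.286), and 0.28 without the 4 arrays that stood apart. The other probe sets of Ccnd1 were also higher at 1.0%, by 0.26 and 0.37.

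Ccne1, which encodes cyclin E1, the cyclin that with CDK2 starts S phase, spread more widely. Its lowest, median and highest levels were 2.69, 3.42 and 4.20 in control, 0.95, 3.15 and 3.89 at 0.1%, 1.24, 3.36 and 4.29 at 0.5%, and 3.54, 4.10 and 4.59 at 1.0%. It was at the floor in 5 of 6 control mice and in 1 of 6 mice at 1.0%. All 6 mice of the 1.0% group lay above the control mean, but only 1 lay above the highest control mouse. Differences from control were -0.55 at 0.1%, -0.20 at 0.5% and 0.64 at 1.0% (SE 0.46 each), with adjusted p from 0.733 to 0.997. The value at 0.1% was -0.17 without replicate 4 of that group and -0.15 with a pseudocount of 16. The 1.0% group stood above the 0.1% group by 1.19 (SE 0.46, adjusted p = 0.392), and the groups overlapped.

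Cyclin D2 and CDK4 were steadier. Ccnd2 differed from control by 0.01, -0.11 and -0.10 at the 3 doses, and Cdk4 by -0.10, -0.14 and -0.17. The other probe sets of Cdk4 that were above the floor on every array gave 0.21 and 0.05 at 0.1%, so the sign for this gene depended on the probe set. Ccne2 and E2f1, at the floor throughout, ran from 0.87 to 3.54 and from 0.90 to 3.39.

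The licensing genes load and form the MCM2-7 helicase at origins of replication. Mcm7, a helicase subunit, was the only subunit of the 6 above the floor in every mouse. In control mice the lowest, median and highest levels of Mcm7 were 6.40, 6.59 and 6.79, against 6.50, 6.69 and 6.83 at 0.1%, 5.80, 6.34 and 6.54 at 0.5%, and 5.92, 6.35 and 6.69 at 1.0%. All 6 mice at 0.5% lay below the control mean and 4 of them below the lowest control mouse, as did 4 of 6 mice at 1.0%. The difference from control was 0.11 at 0.1%, -0.32 at 0.5% (SE 0.13, 95% interval -0.58 to -0.05, 1.25-fold lower, adjusted p = 0.572) and -0.24 at 1.0% (adjusted p = 0.624). The 0.5% group was lower than the 0.1% group by 0.42 on the log2 scale (adjusted p = 0.222), and the slope was -0.34 (SE 0.13, adjusted p = 0.302). Of its other probe sets, 2 gave -0.18 and -0.48 at 0.5%, and the remaining 1 gave 0.20, the opposite sign.

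Cdt1, the factor that brings the MCM helicase to origins, passed the test at no dose, and its smallest p came at 0.5%. The lowest, median and highest levels of Cdt1 were 4.10, 4.39 and 5.18 in control, 3.97, 4.58 and 4.72 at 0.1%, 3.34, 4.06 and 4.71 at 0.5%, and 4.38, 4.64 and 4.93 at 1.0%. At 0.5%, 5 of 6 mice lay below the control mean and 3 below the lowest control mouse. The difference was -0.47 (SE 0.21, 95% interval -0.90 to -0.03, adjusted p = 0.626) at 0.5%, -0.01 at 0.1% and 0.13 at 1.0%. The value at 0.5% was -0.18 when the 4 arrays apart were left out.

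None of the remaining licensing and fork genes had an unadjusted p under 0.05 against control in limma at any dose. Pcna, the sliding clamp of DNA polymerase and also a DNA repair factor, was the most precisely measured gene of the set. Lowest, median and highest levels of Pcna were 7.86, 7.94 and 8.13 in control and 7.70, 7.93 and 7.99 at 1.0%. The groups overlapped, and the differences were 0.00, -0.07 and -0.08 at the 3 doses, with a 95% interval at 1.0% of -0.25 to 0.08, or 0.842-fold to 1.06-fold. Mcm2 gave 0.26, -0.12 and -0.05, Mcm4 -0.08, -0.12 and -0.27, and Mcm5 0.12, 0.10 and -0.30. Mcm3, Mcm6 and Cdc6 lay at or near the floor, and no size is read from their differences.

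**Figure D4:**
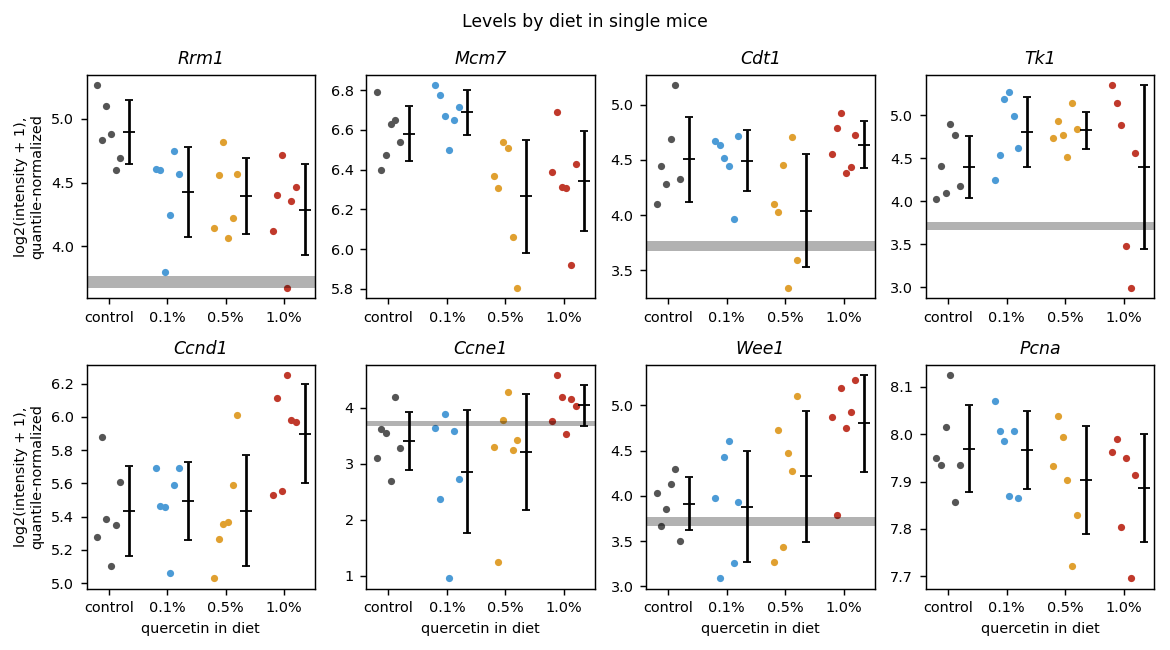
Levels (y axis, quantile-normalized log2(intensity + 1), each panel with its own scale) of 8 genes in single mice by diet (x axis, quercetin in the diet). Black marks are group means with SD, n = 6, and the grey band is the range of the array medians. Rrm1 points at each dose lie below the control mean, and Wee1 has 5 of 6 mice at 1.0% above the highest control mouse.

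Rrm1 stood lowest against control of the genes above the floor at 1.0%, and it was on the lower side at every dose. It encodes the large subunit of ribonucleotide reductase, which makes the deoxynucleotides used in DNA synthesis. Its lowest, median and highest levels were 4.60, 4.86 and 5.27 in control, 3.80, 4.58 and 4.75 at 0.1%, 4.06, 4.39 and 4.82 at 0.5%, and 3.68, 4.38 and 4.71 at 1.0%. Every quercetin-fed mouse lay below the control mean, and 3, 5 and 5 of 6 mice at the 3 doses lay below the lowest control mouse, though the ranges overlapped. The differences were -0.47 at 0.1% (SE 0.18, adjusted p = 0.942), -0.50 at 0.5% (adjusted p = 0.555) and -0.61 at 1.0% (95% interval -0.99 to -0.23, 1.52-fold lower, adjusted p = 0.365). The doses differed little from each other, with 1.0% minus 0.1% at -0.14 (95% interval -0.52 to 0.24).

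The other probe sets of Rrm1 did not give the same values. The next brightest, at the floor on 3 arrays, gave 0.09, -0.12 and -0.26 at the 3 doses. The dimmest, at the floor on all 24 arrays, gave 0.29, -0.63 and -0.02. The value for Rrm1 at 0.1% thus had the opposite sign with either of them.

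**Figure D5:**
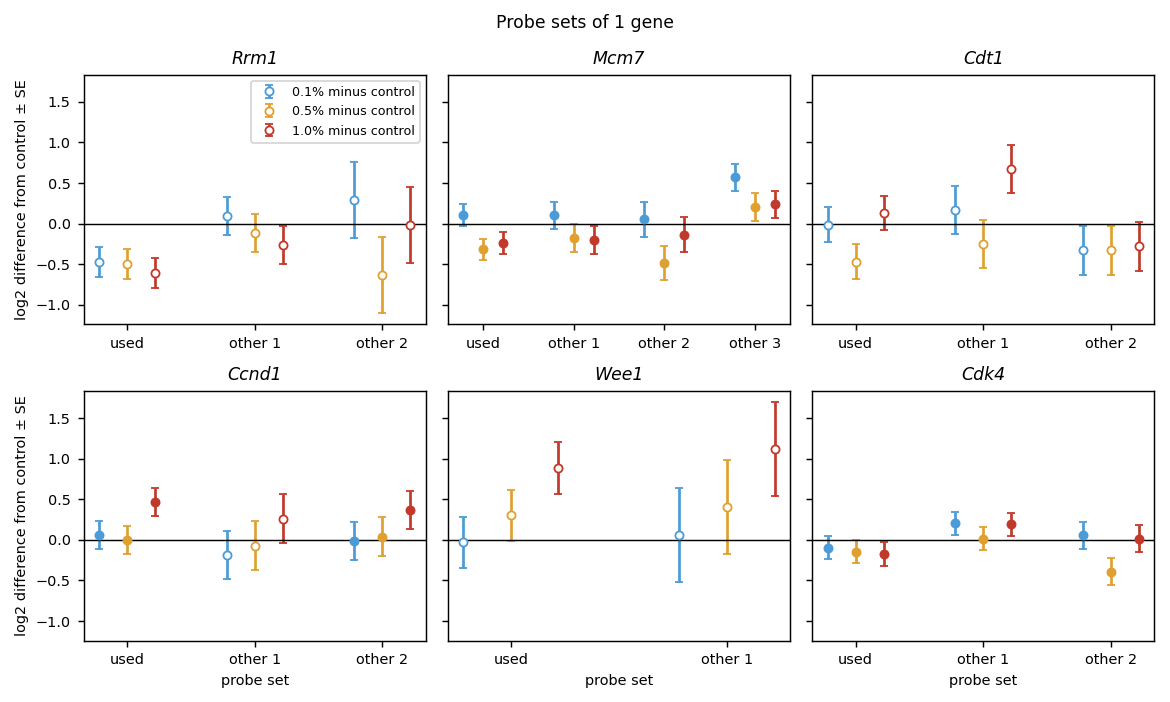
Log2 difference from control with its SE (y axis) for each probe set of 6 genes (x axis; "used" is the probe set with the highest mean), at 0.1% (blue), 0.5% (yellow) and 1.0% quercetin (red). Filled points are probe sets above the floor on every array and open points are not. The used Rrm1 probe set lies below 0 at all doses and its others do not, and 1 Mcm7 probe set lies above 0 at all doses.

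Across the set, agreement between probe sets was limited. Of 4 genes with more than 1 probe set above the floor on every array, the probe sets agreed in sign for 1 gene at 0.1%, 2 at 0.5%, 2 at 1.0% and 3 for the slope. The probe sets used for 8 of the 34 genes, among them Mcm7, Cdk4 and Cdc20, carry a suffix by which Affymetrix marks probes that can also match other transcripts.

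Tk1, thymidine kinase of the salvage pathway, was higher at the lower doses without passing the test. Levels of Tk1 had their lowest, median and highest mouse at 4.03, 4.29 and 4.90 in control, 4.24, 4.81 and 5.27 at 0.1%, 4.52, 4.81 and 5.15 at 0.5%, and 2.99, 4.73 and 5.35 at 1.0%. All 6 mice at 0.5% and 5 of 6 at 0.1% lay above the control mean, and the 1.0% group held both the lowest and the highest mouse. Differences from control were 0.41, 0.43 and 0.00 (SE 0.31 each), with adjusted p from 0.774 to 0.999. The low mice at 1.0% were replicates 4 and 5, at 3.48 and 2.99, which are among the arrays that stood apart, and without those arrays the difference at 1.0% was 0.59 (SE 0.22, adjusted p = 0.506). Rrm2, the small subunit of ribonucleotide reductase that is made in S phase, differed by -0.12, -0.09 and 0.02. Tyms was at the floor on all arrays.

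Wee1, which encodes the kinase that holds CDK1 inactive before mitosis, had the smallest p of the set over dose. Its lowest, median and highest levels were 3.50, 3.94 and 4.29 in control, 3.09, 3.96 and 4.60 at 0.1%, 3.27, 4.37 and 5.10 at 0.5%, and 3.79, 4.90 and 5.28 at 1.0%. At 1.0%, 5 of 6 mice lay above the highest control mouse, and replicate 2 lay within the control range. The difference was -0.03 at 0.1%, 0.30 at 0.5% and 0.89 at 1.0% (SE 0.32, 95% interval 0.23 to 1.54, 1.85-fold, adjusted p = 0.416). The slope was 0.92 per 1% quercetin (SE 0.27, unadjusted p = 0.00253, adjusted p = 0.168). The second probe set of Wee1 gave 1.12 at 1.0% and was at the floor on all 24 arrays. Leaving out the 4 arrays apart gave 0.01 at 0.5% and 0.87 at 1.0%.

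Wee1 is also known as an output of the circadian clock in mouse liver, and clock genes differed between the doses. Of 16 clock genes, Cry1 (-1.27), Dbp (3.96), Nr1d2 (1.06) and Tef (1.13) passed for 1.0% minus 0.1% in limma, beside 0.253% of all genes. The test for any difference also passed these 4, beside 0.181%. Without normalization Cry1, Nr1d2 and Tef lost that call (adjusted p 0.0909, 0.171 and 0.0603). Tef also lost it with the mean over all probe sets (0.258). Nr1d2 lost it without replicates 1, 2 or 6 of the 0.1% group (0.0587 to 0.0699). Against control limma passed 0 of the 16, and 5, 4 and 9 had an unadjusted p under 0.05 at the 3 doses. The shares of all genes with such a p were 5.11%, 7.65% and 8.92%. Dbp, a clock-driven transcription factor, had its lowest, median and highest levels at 5.22, 6.78 and 8.05 in control, 3.68, 4.04 and 6.48 at 0.1%, 5.72, 7.71 and 9.07 at 0.5%, and 6.80, 8.68 and 9.40 at 1.0%. The 1.0% and 0.1% groups did not overlap, and differed by 3.96 (SE 0.58, adjusted p = 0.00302). For 1.0% minus 0.1% the 4 calls held with each array left out, but Nr1d2 lost its call without normalization (adjusted p = 0.177) and with only those 2 groups in the fit (0.108), and Tef with the mean over all probe sets (0.0939). The same 4 genes passed for 0.5% minus 0.1%, beside 0.214% of all genes. All 4 calls were lost with sets of 3 arrays as a random effect (adjusted p 0.0549 to 0.0671) and with only the 2 groups fitted (0.110 to 0.223). The sets were replicates 1 to 3 and 4 to 6 of each group, a grouping that the labels do not give. The 4 arrays that stood apart are all among replicates 4 to 6. Cry1 and Nr1d2 also lost the call for 0.5% minus 0.1% without the 4 arrays apart (0.217 and 0.0841) and without normalization (0.273 and 0.0952). Cry1 and Tef lost it with the mean over all probe sets (0.0608 and 0.361), and Cry1 with arrays centred on their medians (0.116). With 1 array left out at a time, it held in 7 of 24 runs for Cry1, 15 for Nr1d2, 16 for Dbp and 17 for Tef. Dbp lost it without replicates 1, 2, 3, 5 or 6 of the 0.1% group or 1, 5 or 6 of the 0.5% group (0.0542 to 0.0843). Wee1 differed between the same groups by 0.92 (SE 0.32, adjusted p = 0.331). Arntl, which encodes the clock activator BMAL1, differed from control by -1.21 at 1.0% without passing (adjusted p = 0.360). The hour at which each mouse was killed was not used here, and the part of the clock in the Wee1 values was not tested.

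The genes of G2 and mitosis above the floor showed no difference past the test. Cdk1, the kinase of mitotic entry, had its lowest, median and highest levels at 2.94, 3.88 and 4.02 in control, 2.00, 3.00 and 3.85 at 0.5% and 2.40, 3.09 and 4.13 at 1.0%. The differences were -0.28, -0.65 and -0.48 at the 3 doses (SE 0.34 each), and 2 control mice were at the floor against 4, 5 and 5 mice at the doses. Foxm1, a transcription factor of G2 genes, gave -0.45, -0.54 and -0.22, and Cdc20, the activator of the anaphase-promoting complex, 0.11, -0.07 and -0.34. Aurka, the kinase of spindle poles, was at the floor on 23 of 24 arrays, with -0.54 at 0.1% and -0.55 at 1.0% (adjusted p = 0.967 and 0.538). Mki67 and Top2a, at the floor in all mice, ran from 0.55 to 3.64 and from 0.49 to 3.41.

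Other genes of the pathway were read in the same fits. Of 62 further G1 and S phase genes measured, 0 passed against control at any dose, beside 0%, 0.0165% and 0.022% of all genes. At an unadjusted p under 0.05 there were 1, 5 and 6 (1.61%, 8.06% and 9.68%), beside 5.11%, 7.65% and 8.92% of all genes. For 0.5% minus 0.1%, 1 of the 62 passed, beside 0.214% of all genes. It was the brightest probe set annotated to Mcm10, which encodes a factor that starts replication forks. The gene's other probe sets were at the floor on 15 and on 24 arrays and gave 1.05 and 0.55 without passing, so whether the bright probe set reads Mcm10 alone was not tested. Its lowest, median and highest levels were 8.14, 8.42 and 8.73 in control, 7.92, 8.18 and 8.28 at 0.1%, 8.78, 9.14 and 10.33 at 0.5%, and 8.63, 8.83 and 9.16 at 1.0%. All mice at 0.5% lay above all control mice and all mice at 0.1%. The 0.5% group was higher than the 0.1% group by 1.16 (SE 0.20, adjusted p = 0.0182) and than control by 0.88 (adjusted p = 0.250), and the test for any difference gave an adjusted p of 0.0236. The call for 0.5% minus 0.1% was lost without replicates 1, 2 or 6 of the 0.1% group (adjusted p 0.0557, 0.0667 and 0.0584), and that for any difference without these or replicate 6 of the 0.5% group (0.0544 to 0.0699). With the mean over all probe sets both calls were lost (0.109 and 0.238), as was the first with only the 2 groups fitted (0.171) and the second without normalization (0.0609).

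Of 63 further G2 and mitosis genes, 35 were at the floor on all 24 arrays, a larger share than the 35.2% of all genes. Of the 62 further G1 and S phase genes 11 were, a smaller share. In any comparison 0 of the 63 passed, beside 0% to 0.253% of all genes. At the 3 doses 2, 5 and 5 (3.17%, 7.94% and 7.94%) had an unadjusted p under 0.05, beside 5.11%, 7.65% and 8.92%. More of the 63 lay below than above control at 0.5% (42, or 66.7%, beside 53.4% of all genes) and 1.0% (41, or 65.1%, beside 51.6%). At 0.1%, 31 of 63 (49.2%) lay below control, beside 47.7%. Cenpa, the centromere histone, gave -0.70 at 0.5% (SE 0.21, adjusted p = 0.507). Of 15 inhibitors and brakes of the cycle, 0 passed in any comparison. At an unadjusted p under 0.05 there were 0, 3 and 1 (0%, 20% and 6.67%), beside 5.11%, 7.65% and 8.92% of all genes. Btg1, an antiproliferative factor, gave -0.54 at 1.0% (SE 0.19, adjusted p = 0.422) and a slope of -0.67 (adjusted p = 0.132). Gadd45g, a stress-induced brake, gave 1.81 at 0.5% (SE 0.78, adjusted p = 0.600).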

How the data were processed

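Liver RNA of each of 24 mice was hybridized to 1 Affymetrix array. The authors deposited intensity values on a linear scale for 45101 probe sets. How probes were corrected for background and summarised is not given in the sources used here. Medians of the deposited intensity per array ran from 4.78 to 7.58. Precision is limited by the 24 arrays. Values were taken as log2(value + 1) with a pseudocount of 1, which understates the folds of dim genes, and were quantile-normalized. The platform annotation gave 1 gene symbol to 34945 probe sets, several to 932 (left out) and none to 9211, and 13 control probe sets were left out. Each gene took its probe set with the highest mean, which left 18193 genes.

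All 24 arrays entered 1 limma 3.58.1 fit under R 4.3.3, with two-sided tests and Benjamini-Hochberg adjustment over all genes. Scripts were tested on simulated data. Groups came from the labels' diet. Shared replicate numbers did not pair the mice. The genes, lists and tests were chosen with earlier results of these data known. Genes described with every group were, in each of the 3 comparisons with control, the slope and the test for any difference, the 3 above the floor with the smallest p. Pcna, Cdk1, Dbp, Mcm10 and the other genes named were chosen after their values were seen. The fixed floor, from sensory receptor genes, gave way by its rule to the median of all genes, since only 74 such genes were measured.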

Additional observations from a re-analysis of the deposited data

Results flagged for a closer look

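In 4 of the 28 sets of 6 mice formed by the 7 genes described in full and the 4 diets, 1 mouse lay far from the other 5. The cutoff used flags about 1 of 20 sets of independent, normally distributed values. These sets share the same arrays and include levels near the floor, so that rate may not hold here. Ccne1 was 1.24 in replicate 2 of the 0.5% group, where the nearest mouse was at 3.24. Cdt1 was 3.97 in replicate 5 of the 0.1% group, with the nearest at 4.44. Wee1 was 3.79 in replicate 2 of the 1.0% group, with the nearest at 4.75. Ccnd1 was 5.06 in replicate 4 of the 0.1% group, with the nearest at 5.46.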

How the results depend on the processing

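The count of cell cycle genes past the test was 0 in all 8 comparisons under each alternative and with each array left out (0 to 0), and the smallest adjusted p in any of them was 0.0719, for the Wee1 slope. Blocking on the replicate number also passed 0 members in each comparison. Over all genes it passed 0, 0, 4 and 18 at 0.1%, 0.5%, 1.0% and for the slope. The floor fixed first, at the sensory receptor genes, had given way to the median by its rule. A count with it, added after the data were seen, put 3 members rather than 13 at the floor on every array. Other probe sets, also added then, reversed Rrm1 at 0.1% (0.0923 and 0.29) and Mcm7 at 0.5% (0.20). The cause was not tested. Over all genes the slope passed 18 genes, 103 with a pseudocount of 16, 129 without dim genes, 85 with a trended, robust variance, 7 with sets of 3 arrays as a random effect and 0 without normalization. The block also ended the 4 clock gene calls for 0.5% minus 0.1% (adjusted p 0.0604 to 0.0739) and that of Nr1d2 for any difference (0.0610). The dim signal of the mitotic genes limits what can be read from them.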
